A study of Zea mays subsp. mexicana with 6 samples.

Results

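The comparison described here set teosinte seedlings held at 4 °C for 12 h against untreated seedlings kept at 25 °C. Teosinte (Zea mays subsp. mexicana, cultivar 8493) is a wild relative of maize, and all seedlings were 13 days old and grown in soil under 10 h of light and 14 h of dark. Each group had 2 libraries, control replicates 1 and 2 and cold replicates 1 and 2, and each library came from at least 3 seedlings whose roots, stems and leaves were pooled before RNA extraction. Another group of 2 libraries, from seedlings given PEG2000 for 3 h as a drought treatment, entered the statistical fit to help estimate the spread between replicates and is not described here. The features were unigenes, gene-like clusters of transcripts from a de novo assembly, measured in FPKM (fragments mapped, scaled by transcript length and by the library's total). The comparison was made over the unigenes whose mean FPKM over the 4 libraries was at least 1, which were 39711 of 184280 unigenes. Because whole seedlings were pooled, fewer cells of a type and less RNA per cell cannot be told apart in any value below. The sources used here do not give the hour at which control seedlings were harvested, so cold and time of day cannot be told apart either.

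Plants of tropical origin such as maize and teosinte are injured by temperatures that temperate cereals tolerate. In the best known cold signalling pathway, worked out in Arabidopsis, the bHLH factor ICE1 activates CBF (also called DREB1) transcription factors, which in turn activate genes for protective proteins such as dehydrins. Cold is also known to change hormone metabolism, starch breakdown, membrane lipids and the demand for chaperones, the proteins that assist folding.

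The 4 libraries were similar in total but not in makeup. Summed FPKM was 967046 to 971149 in the controls and 981364 to 993409 in the cold. The files hold no read counts, and the spacing of low FPKM values put the relative depth of the other libraries at 1.04 to 1.15 times that of control replicate 1. By the clean reads that the study lists, however, control replicate 1 was the largest of these 4 libraries. The spacing is therefore not a reliable measure of depth here. Cold replicate 1 stood apart, with 8307 unigenes at an FPKM of at least 1 that were under 0.1 in the other 5 libraries of the series, against 4966 in cold replicate 2 and 2219 to 2260 in the controls. Among the unigenes compared, 483 were over 5 times higher in cold replicate 1 than in each of the other 3 libraries. The same count was 324 for cold replicate 2 and 144 and 139 for control replicates 1 and 2. None of these was among the differentially expressed unigenes below, but so wide a gap between replicates makes a call unlikely, so this is no check on the calls. Of the 483, 5 were among the changed unigenes below, as were 16 of the 324. Leaf markers, 15 nuclear photosynthesis unigenes of which 10 were abundant enough to be tested, summed to 12295 to 12695 FPKM in the controls and 12833 to 15271 in the cold. Root markers, 37 unigenes of which 17 were tested, summed to 239.8 to 246.8 FPKM in the controls and 308.1 to 399.5 in the cold. Unigenes whose best database hit was a green alga (156, of which 2 were tested) summed to 14.0 to 25.3 FPKM in the controls and 43.2 to 97.1 in the cold, highest in cold replicate 1.

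Cold exposure was accompanied by large differences in both directions. At the stricter limits, which required a log2(FPKM + 1) difference of 2 or more with adjusted p below 0.005, 1249 differentially expressed unigenes (DEGs, 3.15% of those tested) were called, 826 higher in the cold (2.08%) and 423 lower (1.07%). At wider limits, requiring 1 or more with adjusted p below 0.05, 9003 unigenes (22.7%) were called and are termed changed, 4645 higher (11.7%) and 4358 lower (11.0%). The differences ranged from -6.56 to 6.93 among DEGs, while 70.9% of all unigenes tested stayed within 1 in either direction and the median lay at -0.13. The 826 higher DEGs summed to 7266 FPKM in the control mean and 54055 FPKM in the cold mean, and the 423 lower DEGs summed to 20391 and 2838 FPKM. The libraries of the 2 groups did not overlap for any changed unigene, and they did not overlap for 71.9% of all unigenes tested.

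The DEG calls depended on each of the 4 libraries, and the direction split depended on scaling. Without control replicate 1, and likewise without control replicate 2, no unigene passed the DEG limits with limma (the counts at an unadjusted p under 0.05 were 15647 and 15639), while 472 DEGs were called without cold replicate 1 and 465 without cold replicate 2, of which 132 and 148 were among the 1249 (10.6% and 11.8% of them). Lower DEGs numbered 35 and 36 without these cold libraries. Changed unigenes numbered 5403 and 5449 without control replicates 1 and 2, and 6338 and 6726 without cold replicates 1 and 2. After median-of-ratios scaling, which moved the median from -0.13 to 0.06, 1065 DEGs were higher and 290 lower, so that the higher share rose from 66.1% to 78.6%, and among changed unigenes it rose from 51.6% to 65.3%. With 2 libraries a group, an exact permutation test of a single unigene could not give a p under 0.333, so the calls rest on the spread shared across unigenes in limma.

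**Figure D1:**
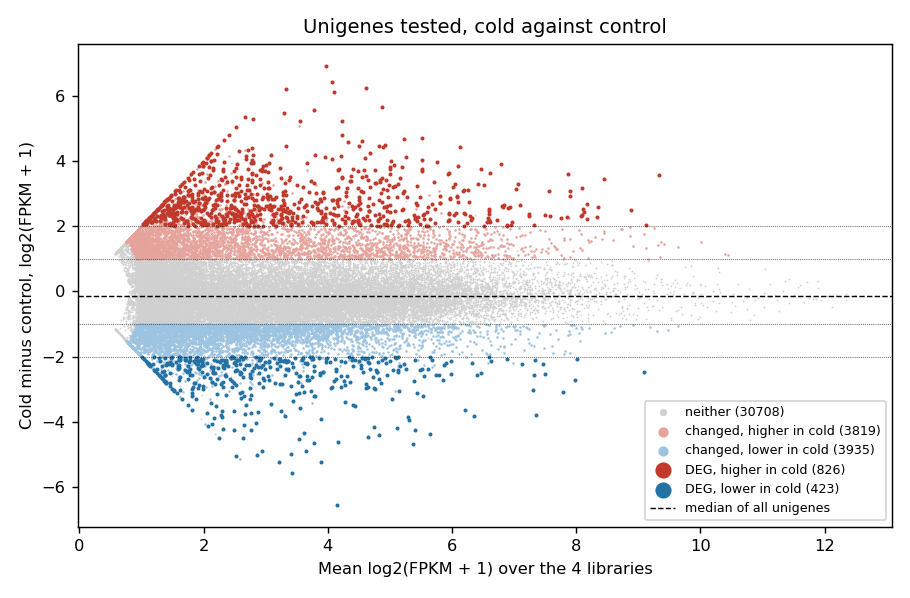
Each point is a unigene, with its mean log2(FPKM + 1) over the 4 libraries on the x axis and the cold minus control difference in log2(FPKM + 1) on the y axis. Red and blue mark the 826 DEGs higher and 423 lower in the cold, pale colours mark unigenes that were changed but not DEGs, and the dashed line is the median of -0.13.

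The 12 largest increases among DEGs with a named product and a mean of at least 10 FPKM in the higher group held 7 unigenes annotated as transcription factors and 5 for other products. A MYB unigene (c59456_g1) read 0.00 and 2.25 FPKM in the controls and 187.77 and 128.17 in the cold, a difference of 6.44 ± 0.55 (SE, adjusted p = 0.00142). A second MYB cluster rose in both of its unigenes, c61418_g2 from 1.21 and 2.52 to 216.11 and 209.86 FPKM (6.26 ± 0.28) and c61418_g3 from 0.27 and 0.71 to 53.57 and 77.33 (5.47 ± 0.37). These come from the same assembly component and may share reads, so they are not independent. Another MYB unigene, c51968_g1, read 1.62 and 0.40 FPKM in the controls and 82.64 and 62.01 in the cold (5.24 ± 0.32). In each of these, even the lower cold library was far above the higher control library, a gap built into the choice of the largest differences without overlap.

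Unigenes for a pair of Dof zinc finger proteins known in Arabidopsis as CYCLING DOF FACTORs, repressors of flowering genes, rose together. The unigene with a hit to DOF5.2 (c51306_g1) went from 2.86 and 2.29 FPKM to 110.25 and 87.79, and that with a hit to DOF5.5 (c53662_g2) from 3.49 and 3.95 to 132.79 and 101.21. Their differences were 4.80 ± 0.19 and 4.63 ± 0.17 on the log2 scale. The NAC factor c55904_g3 read 4.58 and 6.18 FPKM in the controls and 142.83 and 142.75 in the cold, where the libraries were almost equal (4.51 ± 0.27).

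The other products of this group were enzymes and a phosphatase. A xyloglucan endotransglucosylase/hydrolase (c51860_g1), an enzyme that cuts and rejoins xyloglucan chains in the cell wall, rose from 1.27 and 0.74 to 125.85 and 70.02 FPKM. An indole-3-glycerol phosphate lyase (c55590_g2), which releases free indole, rose from 5.91 and 10.52 to 237.76 and 232.04 FPKM. An ATPase (c55007_g5) read 3.29 and 2.88 FPKM in the controls against 193.27 and 224.01 in the cold. A unigene with a hit to a ribonuclease H protein (c53331_g2) went from 6.52 and 6.27 to 239.55 and 151.87 FPKM, and the protein phosphatase 2C unigene c52482_g3 from 2.99 and 3.22 to 100.07 and 94.24. Their adjusted p-values lay between 0.000392 and 0.000624. The annotation held for increases was chosen in the study on these libraries, and it names 361 of the 826 higher DEGs but 46 of the 423 lower ones, so the named decreases come from a smaller pool.

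The largest named decreases were in small heat shock proteins, a defence protease and enzymes of glycolysis and fermentation. Small heat shock proteins bind unfolding proteins and keep them from clumping. A low molecular weight heat shock protein (c45295_g1) fell from 48.05 and 72.19 FPKM to 1.09 and 0.72, a difference of -4.98 ± 0.21 (adjusted p = 0.000432). A class II small heat shock protein (c56552_g1) fell from 23.75 and 35.37 to 0.71 and 0.41 FPKM (-4.27 ± 0.22), and a class I one (c60986_g3) from 18.21 and 15.28 to 0.37 and 0.39 (-3.68 ± 0.15). The cold libraries of all 3 lay near or below 1 FPKM. A unigene for the heat shock factor HSF30 (c59910_g1), a transcription factor of such genes, fell with them, from 44.63 and 46.06 to 5.89 and 4.16 FPKM, whereas another unigene with the same annotation (c59856_g7) rose from 1.85 and 1.82 to 30.58 and 31.36. Of the 20 unigenes on the list of heat shock proteins and chaperonins, 3 were tested, 2 were lower (c56552_g1 and heat shock protein26, c46143_g1, from 10.69 and 12.08 to 0.77 and 1.43 FPKM) and the other, for heat-shock protein 101 (c60810_g1), read 78.26 and 78.77 in the controls and 41.71 and 49.58 in the cold without passing the fold limit (-0.77, adjusted p = 0.0113). The lower share was 66.7% of only 3 tested, against 11.0% over all unigenes.

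**Figure D2:**
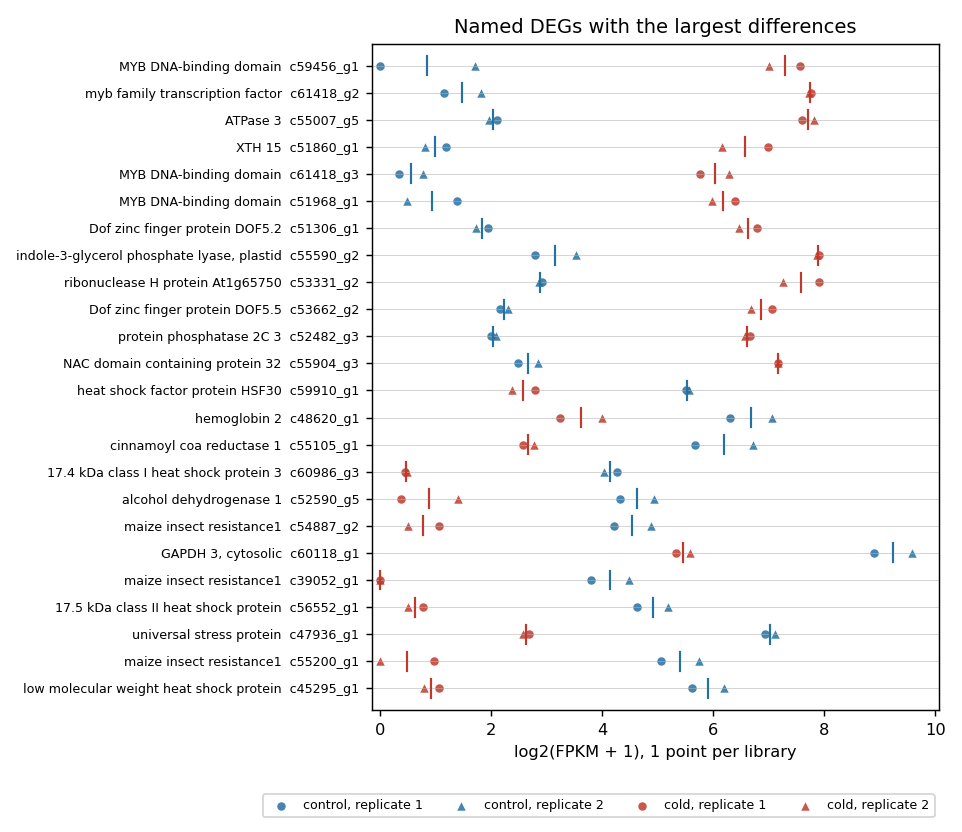
Named DEGs with the greatest differences, 12 higher and 12 lower in the cold, in order of difference, with log2(FPKM + 1) on the x axis. Circles are replicate 1 and triangles replicate 2, blue for control and red for cold, and the vertical strokes are group means. Every row has a gap between the colours because only unigenes without overlap were chosen.

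Unigenes for maize insect resistance1, a cysteine protease known from insect-resistant maize lines, formed a second set of decreases. Of 3 such unigenes, c55200_g1 read 32.15 and 52.44 FPKM in the controls and 0.95 and 0.00 in the cold, c54887_g2 17.47 and 28.51 against 1.08 and 0.41, and c39052_g1 12.83 and 21.43 against 0.00 in each cold library. All 3 were DEGs, and control replicate 2 was the higher control in each. The call of c39052_g1 at the wider limits was lost without cold replicate 1, cold replicate 2 or control replicate 2 (adjusted p up to 0.0604). A universal stress protein (c47936_g1) fell from 120.93 and 137.84 to 5.44 and 4.92 FPKM (-4.40 ± 0.12), with the smallest spread of the group. Cinnamoyl-CoA reductase (c55105_g1), an enzyme of lignin monomer synthesis, fell from 49.84 and 104.60 to 4.97 and 5.79 FPKM, and hemoglobin 2 (c48620_g1), an oxygen-binding protein, from 77.83 and 132.68 to 8.45 and 15.02.

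Enzymes of glycolysis and ethanol fermentation accounted for several of these decreases. The cytosolic glyceraldehyde-3-phosphate dehydrogenase unigene c60118_g1, a glycolytic enzyme, fell from 478.56 and 768.23 FPKM to 39.31 and 47.11 (-3.79 ± 0.24, adjusted p = 0.000798). Alcohol dehydrogenase 2 (c52590_g3), which makes ethanol from acetaldehyde, fell from 1016.47 and 1641.48 to 295.02 and 179.30 FPKM, the largest loss in FPKM of any changed unigene. Alcohol dehydrogenase 1 (c52590_g5) fell from 18.96 and 29.58 to 0.29 and 1.65 FPKM, and pyruvate decarboxylase 1 (c57741_g1), the preceding step, from 146.30 and 242.42 to 54.42 and 44.79. Of the 62 unigenes listed for fermentation, aldehyde dehydrogenases and alternative oxidase, 18 were tested, 4 were lower and 1 was higher, aldehyde dehydrogenase5 (c56196_g1, 3.26 and 1.96 against 9.79 and 6.48 FPKM). The shares were 22.2% and 5.56%, against 11.0% and 11.7% over all unigenes. The fourth decrease was alternative oxidase1 (c52872_g4, 8.41 and 9.39 against 2.34 and 3.10 FPKM), a mitochondrial bypass of respiration. Control replicate 2 was the higher control library for each of these decreases. The call of pyruvate decarboxylase 1 was lost without cold replicate 2 (adjusted p = 0.0526), and that of aldehyde dehydrogenase5 without any of the 4 libraries in turn (adjusted p up to 0.194).

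The largest gain in FPKM among changed unigenes was in a unigene for beta-amylase 3, and another such unigene was among the 5 largest. The first (c62962_g1), for a plastid enzyme that releases maltose from starch in Arabidopsis, read 211.24 and 164.98 FPKM in the controls and 2431.20 and 2027.37 in the cold, 11.9 times the control mean (3.56 ± 0.19, adjusted p = 0.000609). The second (c59418_g6) went from 115.45 and 94.40 to 1362.31 and 997.24 FPKM, 11.2 times the control mean. The other 3 of the 5 largest gains had no product in the annotation held: c43438_g2 (634.56 and 581.84 against 2038.55 and 1493.13 FPKM), c64357_g1 (993.47 and 817.39 against 1711.82 and 2331.02) and c59282_g1 (881.77 and 1004.60 against 1964.70 and 2127.43). Each of these 3 lost its call when single libraries of either group were left out (adjusted p up to 0.0766), while both beta-amylase unigenes kept theirs. Beside ADH2 and the glyceraldehyde-3-phosphate dehydrogenase, the 5 largest losses in FPKM held a phospholipid transfer protein (c18158_g1, 1173.70 and 982.51 against 443.28 and 501.55) and unigenes without a product, c49141_g1 (736.80 and 561.92 against 68.68 and 81.65) and c64671_g1 (1333.84 and 990.03 against 613.90 and 497.79). The call of c64671_g1 was lost without cold replicate 1, cold replicate 2 or control replicate 1 (adjusted p up to 0.107), and those of c64671_g1 and c18158_g1 fell just inside the 2-fold limit after median-of-ratios scaling (-0.82 and -0.96).

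Functional groups were then compared through annotation lists built from maize hits in tables that did not depend on the cold comparison. Only parts of these tables were held, with 2828 unigenes that had a maize hit. A list is therefore not the whole family in the assembly, and neither are its counts of listed unigenes. The parts held covered 915 of the unigenes tested, of which 19.9% were changed, 9.73% higher and 10.2% lower, close to the shares over all unigenes. Across the 22 lists other than green algae, 38 members were higher and 40 lower. The plot of list shares shows the lists whose shares lay farthest from the background. On the higher side they were nutrient transporters (6 of 13 tested), late embryogenesis abundant (LEA) proteins (2 of 5) and oxylipin enzymes (10 of 29). On the lower side they were heat shock proteins (2 of 3) and, in the endoplasmic reticulum (ER), folding proteins (7 of 16). With so few members tested, a single unigene can move some of these shares widely.

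**Figure D3:**
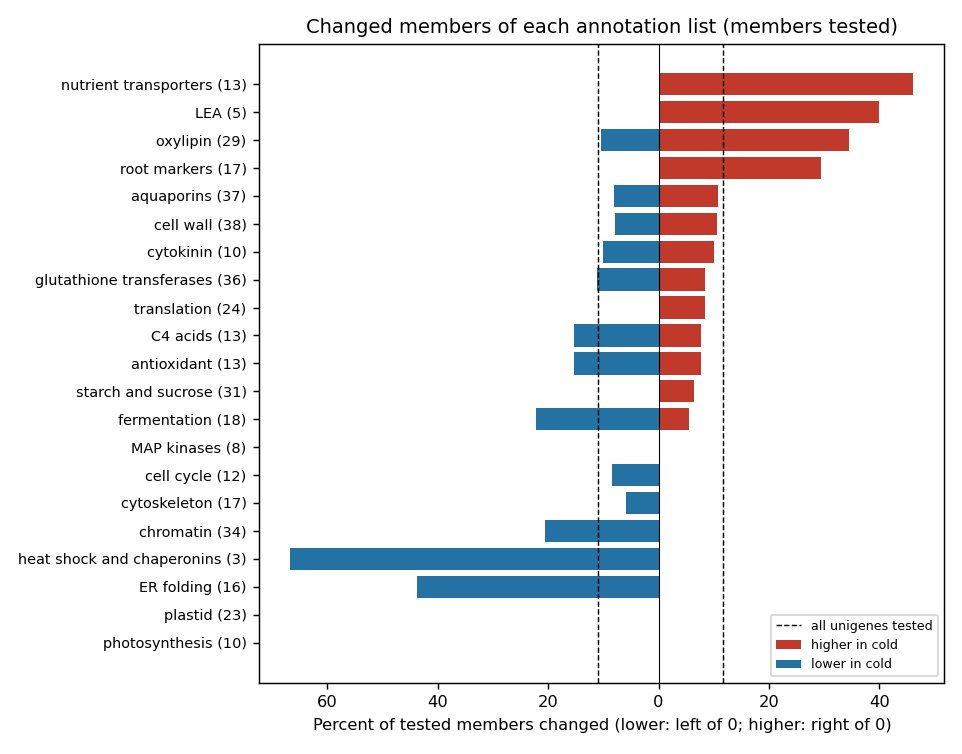
Percent of the tested members of each annotation list that were changed, lower in the cold to the left of 0 and higher to the right, with the number tested in parentheses. The dashed lines are the shares over all unigenes tested, 11.0% lower and 11.7% higher, and lists with fewer than 3 members tested are not drawn.

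Among proteins that fold or dispose of secreted proteins in the ER, the changed unigenes were all lower. Of 61 listed unigenes 16 were tested, 7 were lower (43.75%, against 11.0% over all unigenes) and none was higher. The list median was -0.85 against -0.13 over all unigenes. Protein disulfide isomerases form the disulfide bonds of secreted proteins, and protein disulfide isomerase8 (c59953_g1) fell from 67.19 and 85.06 to 10.59 and 9.36 FPKM (-2.81 ± 0.15, adjusted p = 0.000624). Calreticulin, a calcium-binding chaperone of the ER, fell in both of its unigenes, c58156_g2 from 381.35 and 380.22 to 71.32 and 90.91 FPKM and c58156_g1 from 333.50 and 336.43 to 74.01 and 79.14. The control libraries of both were almost equal, and no cold library of either exceeded 90.91 FPKM. Other disulfide isomerases fell less, c62106_g3 from 77.30 and 92.55 to 34.14 and 35.99 FPKM, c59976_g2 from 38.90 and 39.42 to 16.04 and 18.39, and c54351_g2 from 14.63 and 14.27 to 5.58 and 6.47. Derlin-2.1 (c58641_g1), part of the machinery that exports misfolded proteins from the ER for degradation, went from 26.72 and 25.08 to 13.19 and 10.99 FPKM.

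**Figure D4:**
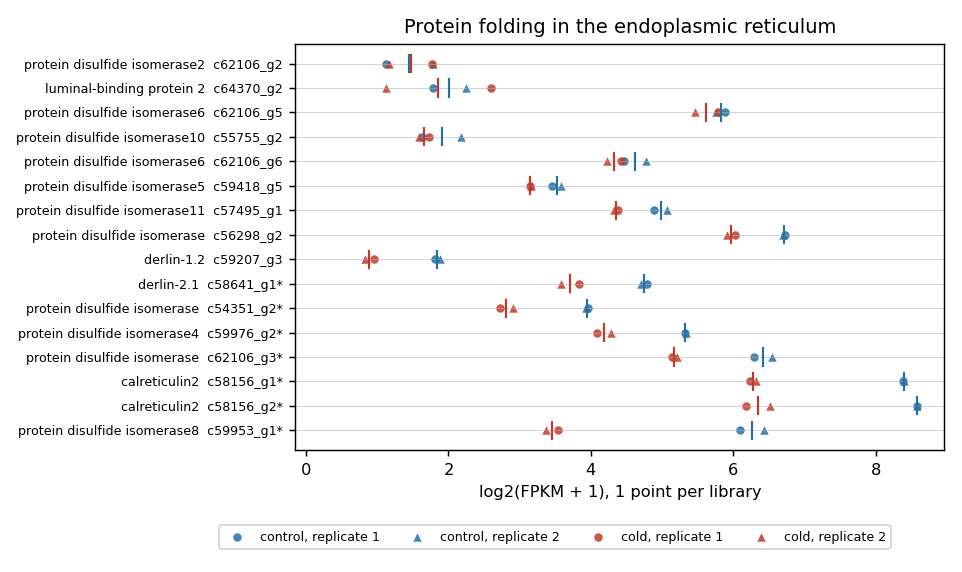
The 16 tested unigenes for folding in the ER, by difference, with log2(FPKM + 1) of each library on the x axis. Circles and triangles are replicates 1 and 2, blue for control and red for cold, strokes are group means, and an asterisk marks the 7 changed unigenes at the bottom.

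The 9 members that did not pass ran from -0.95 for derlin-1.2 (c59207_g3) to 0.02 for protein disulfide isomerase2 (c62106_g2). The count was 7 without cold replicate 1 or control replicate 2 and 6 without either of the others, and 4 after median-of-ratios scaling, where the list median was -0.67. The members lost under that scaling had differences between -1.04 and -1.14 before it.

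Enzymes of the oxylipin pathway rose more often than they fell. Lipoxygenases add oxygen to polyunsaturated fatty acids, the first step to jasmonates and other oxylipins, allene oxide synthase works on one of their products, and 12-oxo-phytodienoic acid reductases (OPR) act further down. Of 54 listed unigenes 29 were tested, 10 were higher and 3 lower, with a list median of 0.52. The shares were 34.5% and 10.3%, against 11.7% and 11.0% over all unigenes, so the lower share lay near the background. By class, 6 of 19 lipoxygenases were higher and 1 was lower, and 3 of 9 OPR unigenes were higher and 2 lower. The most abundant increase was in a lipoxygenase matched to maize lox4 (c63752_g1), from 114.52 and 112.88 FPKM to 731.64 and 608.11 (2.54 ± 0.12, adjusted p = 0.000537), followed by lox5 (c61857_g1), from 178.79 and 192.91 to 683.14 and 612.59. Lipoxygenase7 rose in 2 unigenes, c40245_g1 from 0.73 and 1.12 to 20.68 and 15.02 FPKM and c46826_g1 from 5.15 and 6.71 to 38.10 and 28.12, and lipoxygenase9 (c64494_g1) from 4.39 and 6.30 to 38.95 and 29.72. Another lipoxygenase7 unigene, the scarce c32782_g1, was lower without passing, at 2.05 and 1.76 against 0.92 and 0.00 FPKM (-1.07, adjusted p = 0.0848). Allene oxide synthase1 (c28023_g1) read 29.83 and 64.52 FPKM in the controls and 104.96 and 127.57 in the cold (1.38 ± 0.34, adjusted p = 0.0262).

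**Figure D5:**
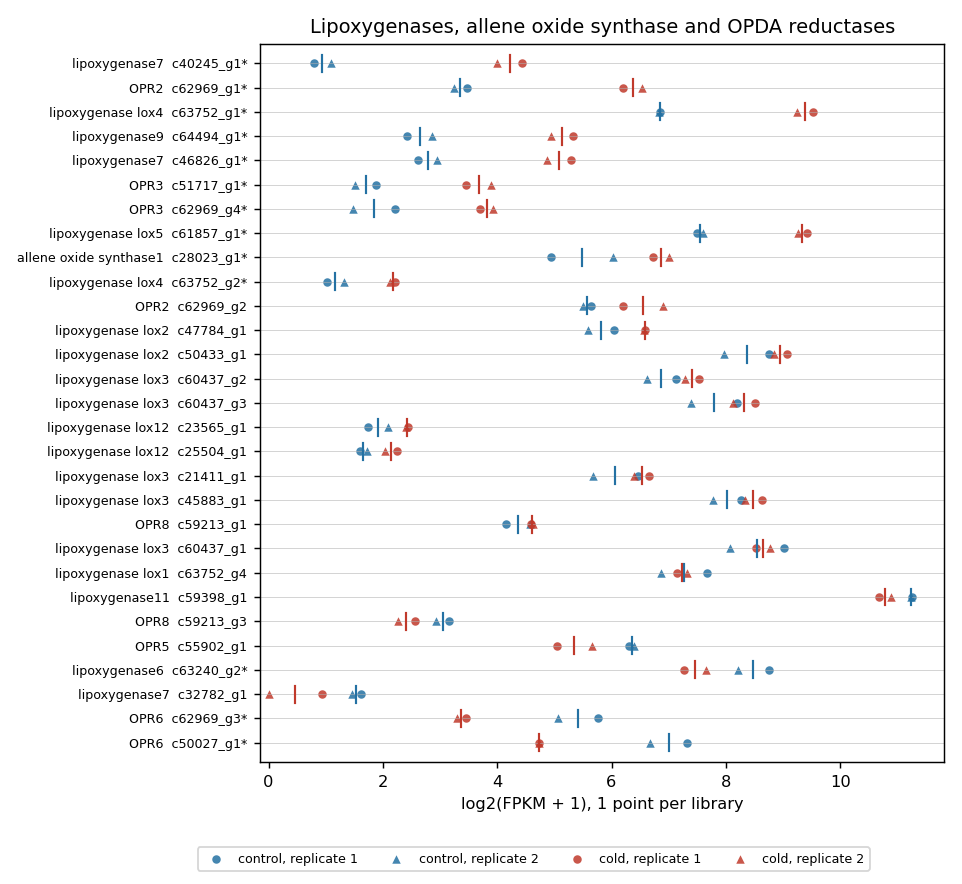
The 29 tested unigenes of the oxylipin list, by difference, with log2(FPKM + 1) of each library on the x axis. Circles and triangles are replicates 1 and 2, blue for control and red for cold, strokes are group means, and an asterisk marks the 13 changed unigenes, 10 toward the top and 3 toward the bottom.

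The OPR family split by member. An OPR2 unigene (c62969_g1) rose from 10.05 and 8.49 to 72.84 and 91.24 FPKM (3.01 ± 0.20). The OPR2 unigene more abundant in the controls, c62969_g2, read 48.86 and 44.50 against 72.35 and 118.83 FPKM, just short of 2-fold (0.98, adjusted p = 0.0269). OPR3 rose in 2 unigenes, c51717_g1 from 2.68 and 1.87 to 9.99 and 13.85 and c62969_g4 from 3.64 and 1.77 to 12.03 and 14.19. OPR6 fell in 2 unigenes, c50027_g1 from 158.47 and 101.50 to 25.72 and 25.42 FPKM (-2.27 ± 0.22) and c62969_g3 from 53.51 and 32.47 to 9.95 and 8.81. Unigenes of component c62969 carry hits to OPR2, OPR3 and OPR6, close paralogs among which the counting may have split reads. OPR8, which makes the precursor of jasmonic acid in maize, read 16.75 and 22.84 against 23.13 and 23.84 FPKM in c59213_g1 (0.25, adjusted p = 0.272) and 7.97 and 6.58 against 4.87 and 3.78 in c59213_g3 (-0.64, adjusted p = 0.0567). The most abundant member, lipoxygenase11 (c59398_g1), read 2452.60 and 2405.17 FPKM in the controls and 1639.02 and 1891.74 in the cold, a difference of -0.46 that did not reach 2-fold. The third decrease, lipoxygenase6 (c63240_g2, 428.47 and 294.69 against 152.62 and 200.81 FPKM), lost its call without cold replicate 1, cold replicate 2 or control replicate 1 (adjusted p up to 0.12), as did allene oxide synthase1 (up to 0.177). The call of c62969_g4 was lost without either cold library (up to 0.0694), and that of a low lox4 unigene (c63752_g2, 1.02 and 1.49 against 3.63 and 3.37 FPKM) without any of the 4 (up to 0.109).

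Enzymes of starch and sucrose metabolism were covered by a list that does not hold the 2 beta-amylase 3 unigenes above, whose annotation came from the cold comparison. Of 54 listed unigenes 31 were tested and 2 were higher (6.45%, against 11.7% over all unigenes). A unigene for fructokinase-1 (c59904_g4), which phosphorylates fructose, rose from 112.24 and 139.36 to 391.54 and 401.72 FPKM, and starch synthase homolog1 (c63213_g1) from 32.43 and 31.68 to 78.93 and 72.76. Other fructokinase-1 unigenes were not changed. Of these, c59904_g1 of the same component read 234.38 and 234.88 against 235.62 and 244.86 FPKM (0.03, adjusted p = 0.831). The other, c63784_g1, read 8.78 and 11.11 against 13.84 and 10.79 (0.28, adjusted p = 0.451). The list's own beta-amylase unigenes did not pass the limits, c58751_g4 at 18.99 and 23.54 against 14.13 and 23.94 FPKM (-0.19, adjusted p = 0.739) and c58751_g6 at 2.33 and 3.37 against 0.73 and 1.35 (-0.92, adjusted p = 0.0457). No member was called lower, and the most abundant, sucrose synthase 2 (c60955_g1), read 581.45 and 611.29 against 499.41 and 565.35 FPKM (-0.17, adjusted p = 0.373, and above 0 after median-of-ratios scaling). In the list of enzymes of phosphoenolpyruvate and malate, which carry carbon in the C4 pathway, 13 of 29 unigenes were tested, 1 was higher and 2 were lower. The shares were 7.69% and 15.4%, against 11.7% and 11.0% over all unigenes. Phosphoenolpyruvate carboxylase kinase 2 (c54841_g3), one of the kinases listed for phosphoenolpyruvate carboxylase, rose from 20.28 and 18.43 to 109.51 and 101.95 FPKM (2.39 ± 0.13, adjusted p = 0.000617). The lower ones were a low-abundance unigene of the pyruvate, phosphate dikinase regulatory protein (c64246_g2, 2.86 and 2.04 against 0.53 and 0.30 FPKM) and phosphoenolpyruvate carboxylase kinase 4 (c60892_g5, 4.82 and 7.01 against 3.22 and 1.73), and neither call held without cold replicate 1, cold replicate 2 or control replicate 1, nor that of c60892_g5 without control replicate 2 (adjusted p up to 0.0729 and 0.176). The kinase 1 unigenes of component c54841 were not changed. They read 4.99 and 6.20 against 4.26 and 6.66 FPKM in c54841_g5 (-0.05) and 2.73 and 2.24 against 1.45 and 3.01 in c54841_g6 (-0.15). The C4 enzymes themselves did not pass the limits. Phosphoenolpyruvate carboxylase 1 (c59465_g1), the first enzyme of fixation and the most abundant member in the cold, read 1794.56 and 1523.85 against 2222.47 and 3225.32 FPKM without overlap (0.69, adjusted p = 0.0438), below 2-fold. NADP-dependent malic enzyme (c57059_g2), which releases the carbon again, was at 2547.80 and 2582.58 against 2120.59 and 2572.40 FPKM.

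Photosynthesis transcripts did not pass the test. None of 10 tested nuclear photosynthesis unigenes and none of 23 tested unigenes of the plastid genome was changed by limma, against 22.7% of all unigenes, while 2 and 9 of them had an unadjusted p under 0.05. The differences of the nuclear set ran from -0.34 to 0.76 with a median of 0.15, and the small chain of ribulose bisphosphate carboxylase (c59441_g6) read 3525.93 and 3286.53 FPKM in the controls and 4064.37 and 4492.17 in the cold (0.33, adjusted p = 0.105). The highest was photosystem II subunit PsbS1 (c59193_g1), which takes part in dissipating excess light energy, at 620.01 and 704.33 against 1005.40 and 1255.64 FPKM (0.76, adjusted p = 0.0167), below the fold limit. Plastid-genome unigenes ran from -0.08 to 1.07 with a median of 0.34, in libraries selected for poly(A) tails, which plastid transcripts mostly lack.

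Cell wall unigenes were called in both directions. Of 46 listed wall unigenes 38 were tested, 4 were higher and 3 lower, shares of 10.5% and 7.89% that lie near the background. All 4 increases were unigenes with a hit to cellulose synthase8, a subunit of the complex that spins cellulose. They were c57887_g5 (14.06 and 12.91 against 58.70 and 52.86 FPKM, 1.97 ± 0.18), c52973_g3 (22.52 and 27.63 against 81.00 and 80.58), c53763_g1 (29.17 and 41.02 against 91.85 and 105.39) and c61070_g1 (12.21 and 17.79 against 36.29 and 40.84). The other 22 tested cellulose synthase unigenes were not changed, and their differences ran from -0.88 for cellulose synthase 11 (c61261_g2) to 0.97 for cellulose synthase2 (c64412_g2). The most abundant, cellulose synthase5 (c58186_g1), read 148.64 and 157.82 against 241.02 and 239.38 FPKM (0.65, adjusted p = 0.00601). Expansins loosen walls during growth, and 2 of 5 were lower, beta-expansin 4 (c55515_g2, 18.70 and 25.21 against 2.57 and 9.50 FPKM) and alpha expansin2 (c50889_g1, 3.94 and 2.82 against 0.09 and 0.90), with the third decrease of the list in a xyloglucan endotransglycosylase (c52206_g2, 195.44 and 112.12 against 60.62 and 84.71). These 3 calls were lost when single libraries were left out, each without cold replicate 1 or control replicate 1 (adjusted p up to 0.196, 0.0971 and 0.22), and no wall member was lower without those libraries. That of c61070_g1 was lost without cold replicate 2 (adjusted p = 0.0578).

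Aquaporins, channels that pass water and small solutes through membranes, moved in both directions. Of 49 listed unigenes 37 were tested, 4 were higher and 3 lower, shares of 10.8% and 8.11% that lie near the background. Aquaporin TIP4-1 (c56624_g1), of the vacuolar membrane, rose from 10.01 and 13.76 to 132.07 and 203.13 FPKM (3.69 ± 0.25, adjusted p = 0.000891), and PIP2-5 (c14812_g1), of the plasma membrane, from 18.64 and 18.69 to 109.65 and 74.17. Plasma membrane aquaporins also fell, PIP1-2 (c44234_g1) from 33.87 and 37.18 to 14.02 and 10.43 FPKM and PIP2-3 (c59251_g1) from 210.60 and 215.13 to 91.13 and 109.27. The increases of NIP2-1 (c7101_g1, 0.28 and 2.22 against 7.20 and 9.90 FPKM) and PIP1-6 (c26035_g1, 4.24 and 4.11 against 13.72 and 14.67) and the decrease of a unigene shared by PIP1-3 and PIP1-4 (c54061_g1, 364.31 and 335.49 against 175.24 and 166.08) were each lost without 3 or 4 of the libraries in turn (adjusted p up to 0.151, 0.183 and 0.0703). That of PIP2-3 did not reach 2-fold without cold replicate 1 (-0.96) or after median-of-ratios scaling (-0.86). The most abundant aquaporin, TIP1-1 (c63952_g3), read 1668.95 and 1576.98 against 1481.93 and 1146.88 FPKM (-0.32, adjusted p = 0.175).

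Among nutrient transporters, the changed unigenes were all higher and carried 2 gene names, potassium channel5 and pht7. Of 32 listed transporters of phosphate, nitrate, sulfate and potassium 13 were tested, and the list median was 1.41. Of the 13, 6 were higher (46.2%, against 11.7% over all unigenes) and none was lower. The most abundant, phosphate transporter protein1 (c37245_g1), read 183.28 and 140.83 against 174.31 and 212.00 FPKM, with overlapping libraries (0.26, adjusted p = 0.276). Potassium channel5 rose in 3 unigenes of 1 component, c40535_g1 from 3.90 and 5.27 to 27.95 and 43.89 FPKM (2.70 ± 0.28), c40535_g2 from 7.58 and 5.16 to 26.97 and 41.65 and c40535_g3 from 3.41 and 6.63 to 19.99 and 25.43. The phosphate transporter matched to maize pht7 rose in 3 unigenes, among them c33621_g2 from 0.00 and 0.53 to 5.54 and 7.45 FPKM. Of the 6 calls, 2 (c40535_g1 and c33621_g2) held without each library in turn, and the other 4 were lost without 3 or 4 of the libraries (adjusted p up to 0.165 for c40535_g3). On the list of root markers, which holds 10 of the same unigenes, 5 of 17 were higher and none was lower, with a median of 0.54, and the count was 2, 3, 3 and 4 without cold replicates 1 and 2 and control replicates 1 and 2. The largest was nicotianamine synthase2 (c30509_g1), an enzyme that makes a metal chelator, at 1.91 and 0.00 against 25.79 and 27.88 FPKM (4.03 ± 0.50, adjusted p = 0.00355). The 5 higher root markers were 29.4% of the 17 tested, against 11.7% over all unigenes. Of the 17 differences on this list 12 were above 0. The 12 members not changed included 2 scarce ones picked after their values were seen. They were root cap periphery gene2 at 0.49 and 1.93 against 0.56 and 1.16 FPKM in c39734_g2 and O-methyltransferase ZRP4 at 3.44 and 5.32 against 2.59 and 2.82 in c46913_g1. The part of root content in these differences was not tested.

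Protective and detoxifying proteins did not move together. Among LEA proteins and dehydrins, which protect cells against water loss, 5 of 8 unigenes were tested and 2 were higher, low temperature-induced protein15 (c54255_g2) from 166.31 and 127.86 to 751.40 and 680.91 FPKM (2.29 ± 0.16, adjusted p = 0.000951) and a dehydrin (c57549_g1) from 46.51 and 41.44 to 262.45 and 160.11. A second dehydrin, DHN1 (c43682_g1), read 11.43 and 17.62 against 28.17 and 17.15 FPKM, with overlapping libraries. The 2 higher unigenes of this list were 40% of the 5 tested, against 11.7% over all unigenes. Of 67 unigenes for antioxidant enzymes 13 were tested, 2 were lower and 1 higher, and the list median was -0.74 (0.28 with no FPKM filter). The shares were 15.4% and 7.69%, against 11.0% and 11.7% over all unigenes. Ascorbate peroxidase2 (c57858_g1), which removes hydrogen peroxide, fell from 138.59 and 139.43 to 46.62 and 60.46 FPKM (-1.37 ± 0.17). Catalase isozyme 1 (c55926_g2), which also breaks down hydrogen peroxide, read 302.07 and 385.67 against 186.17 and 151.86 FPKM, a call lost without cold replicate 1, cold replicate 2 or control replicate 2 (adjusted p up to 0.096). Another catalase unigene (c11585_g1) was listed at 0.00 in each control and at 2.46 and 9.51 FPKM in the cold, a call lost without either control.

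Glutathione transferases, which attach glutathione to toxic compounds, were split. Of 51 unigenes 36 were tested, 3 were higher and 4 lower. The shares of 8.33% and 11.1% lie near the background of 11.7% and 11.0% over all unigenes. Glutathione transferase30 (c57274_g2) rose from 7.55 and 12.78 to 86.34 and 113.71 FPKM (3.20 ± 0.26, adjusted p = 0.00124), and glutathione transferase20 (c58678_g1) from 54.86 and 50.32 to 134.46 and 154.21. Glutathione S-transferase 1 fell in c42557_g1 from 14.69 and 14.20 to 3.43 and 2.15 FPKM, while its most abundant unigene, c59665_g4, read 458.36 and 523.64 against 237.16 and 268.40 (-0.95), just short of 2-fold. The decrease of GST 26 (c21749_g1, 11.55 and 9.68 against 3.12 and 2.99 FPKM) lost its call without cold replicate 1, cold replicate 2 or control replicate 1 (adjusted p up to 0.0649).

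Chromatin genes leaned to lower values. Of 78 listed unigenes 34 were tested, 7 were lower (20.6%, against 11.0% over all unigenes) and none was higher. Of the 34 differences 32 were below 0, with a list median of -0.42 against -0.13 over all unigenes. The linker histone H1 (c55184_g1), which binds between nucleosomes, fell from 214.21 and 181.55 to 70.60 and 45.96 FPKM (-1.77 ± 0.21, adjusted p = 0.00332). DNA methyl transferase 106 (c63959_g2) went from 23.31 and 20.73 to 7.90 and 9.93 FPKM, a histone acetyl transferase (c46186_g1) from 15.48 and 15.79 to 6.62 and 6.27, and the SET domain protein SET102 (c52072_g1), of a family of histone methyl transferases, from 8.25 and 8.15 to 3.01 and 1.98. The most abundant member, methyl binding domain106 (c57245_g2), was not changed, at 131.79 and 137.07 against 191.24 and 144.55 FPKM. The count was 6 and 5 without cold replicates 1 and 2, 4 without control replicate 1 or 2, and 5 after median-of-ratios scaling, where the list median was -0.24. The call of SET102 was lost without cold replicate 2 or either control (adjusted p up to 0.0623), and that of DNA methyl transferase 106 without control replicate 1 (0.0545).

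Other housekeeping groups had few called members. The lower shares were 8.33% for the cell cycle and 5.88% for the cytoskeleton, against 11.0% over all unigenes. The cell cycle list nevertheless had a median of -0.40 (0.16 with no FPKM filter), close to that of the chromatin list. In the cell cycle list 12 of 36 unigenes were tested and 1 was lower, proliferating cell nuclear antigen2 (c54931_g2), the sliding clamp of DNA replication, from 18.78 and 20.77 to 9.25 and 8.03 FPKM (-1.11 ± 0.16), which fell inside the 2-fold limit under median-of-ratios scaling (-0.90) and quantile normalization (-0.97). The most abundant member, cyclin2 (c62416_g2), read 17.18 and 15.00 against 18.08 and 15.63 FPKM. In the cytoskeleton list 17 of 49 were tested and 1 was lower, tubulin alpha-6 chain (c60486_g1), from 38.46 and 37.82 to 16.11 and 20.60 FPKM, which did not reach 2-fold without cold replicate 1 (-0.86), under median-of-ratios scaling (-0.81) or under quantile normalization (-0.94), and actin-depolymerizing factor 3 (c63744_g3) read 613.88 and 633.58 against 738.67 and 689.23. None of 8 tested MAP kinase unigenes of 27 was changed by limma, against 22.7% of all unigenes, and 5 had an unadjusted p under 0.05. The most abundant, MAP kinase2 (c62175_g1), read 77.68 and 62.30 against 105.82 and 89.32 FPKM. The only proteasome unigene of 11 that was tested (c55725_g2) read 70.49 and 73.54 against 62.70 and 56.26 FPKM.

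The translation list held the clearest mark of cold replicate 1. Of 76 listed ribosomal proteins and translation factors 24 were tested, 2 were higher (8.33%, against 11.7% over all unigenes) and none was lower. Of the 24, 6 were over 5 times higher in cold replicate 1 than in each of the other 3 libraries. An elongation factor 1-alpha unigene (c43879_g1), for instance, read 1.63 and 5.91 FPKM in the controls and 44.59 and 1.09 in the cold, and an eIF-4A unigene (c55853_g3) 0.14 and 0.64 against 17.80 and 1.25. These were not called. The 2 called ones, for initiation factor 5A (c45678_g1, 0.22 and 0.06 against 6.71 and 2.08 FPKM) and ribosomal protein P0 (c37092_g1, 0.00 and 0.38 against 1.59 and 5.79), lost their calls without either control and without cold replicates 1 and 2, respectively (adjusted p up to 0.117 and 0.161). The abundant initiation factor 5A unigene (c52663_g5) read 389.61 and 377.21 against 354.29 and 332.58 FPKM (-0.16, and above 0 after median-of-ratios scaling).

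Cytokinin genes gave 1 change in each direction among 10 tested of 32, a share of 10% each that lies near the background. Histidine kinase 1 (c63626_g3), a cytokinin receptor, rose from 6.29 and 8.79 to 33.36 and 29.21 FPKM (1.93 ± 0.18, adjusted p = 0.00168). Cytokinin oxidase 2 (c62772_g1), which degrades cytokinins, read 17.47 and 38.79 against 4.93 and 3.95 FPKM, a call lost without either cold library (adjusted p up to 0.0714). Response regulator 7 (c52626_g2), the most abundant member, was not changed, at 35.31 and 33.07 against 24.43 and 22.93 FPKM.

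The study singled out a set of hormone and signalling unigenes on these same libraries, so their calls below are not independent evidence. Gibberellins promote growth, and enzymes of both their synthesis and their inactivation differed. Gibberellin 2-beta-dioxygenases inactivate gibberellins, and 3 unigenes were higher in the cold, c57017_g2 (0.64 and 0.56 against 10.84 and 7.64 FPKM), c57017_g1 (0.13 and 0.48 against 6.53 and 4.53) and c33506_g1 (5.89 and 5.21 against 25.58 and 16.67). Gibberellin 20-oxidases, which act in synthesis, went both ways. The unigene c56760_g2 fell from 56.70 and 69.74 to 11.39 and 10.36 FPKM (-2.43 ± 0.24, adjusted p = 0.00206), c63822_g4 rose from 3.43 and 6.00 to 24.74 and 20.70, and c49254_g1 read 0.73 and 3.43 against 4.64 and 9.04 without passing the test (adjusted p = 0.0995). The unigene given by the study as the gibberellin receptor GID1L2 (c47232_g1) fell from 15.02 and 16.54 to 1.81 and 1.62 FPKM (-2.63 ± 0.25, adjusted p = 0.00183). The annotation held gave no product for c47232_g1, c56760_g2 or c49254_g1.

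In the ICE1 and CBF pathway the ICE1 unigenes did not pass the test and the CBF and DREB unigenes rose. The 2 ICE1 unigenes were not changed, c60792_g1 at 7.91 and 8.73 against 10.04 and 10.86 FPKM (0.30, adjusted p = 0.147) and c13919_g1 at 3.90 and 8.94 against 6.65 and 5.52, where the libraries overlapped. The CBF6 unigene c57018_g4 rose from 8.23 and 2.71 to 77.85 and 129.28 FPKM (4.11 ± 0.45, adjusted p = 0.00265), and the DREB unigene c51992_g7 from 7.30 and 4.59 to 50.21 and 62.30 (3.06 ± 0.29). The lower DREB unigenes c49699_g1 (0.31 and 0.21 against 5.89 and 3.53 FPKM) and c49699_g2 (1.37 and 0.40 against 5.35 and 5.10) passed the wider limits, but c49699_g1 lost its call without any of the 4 libraries in turn (adjusted p up to 0.0848) and c49699_g2 without either cold library or control replicate 2 (up to 0.107).

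Unigenes of abscisic acid, the hormone of water stress, and of calcium signalling included changes in both directions. NCED1 (c63716_g5), a rate-limiting enzyme of abscisic acid synthesis, rose from 1.58 and 1.07 to 26.52 and 29.88 FPKM (3.66 ± 0.16, adjusted p = 0.000412). A protein phosphatase 2C unigene (c62830_g2) rose from 23.58 and 23.64 to 172.34 and 203.06 FPKM, and the energy-sensing kinase SnRK1 (c57228_g1) read 3.43 and 3.08 against 0.48 and 0.35 (-1.59, adjusted p = 0.0066). The unigene given as a trehalose-6-phosphate phosphatase (c45624_g2), whose Arabidopsis hit names a hydrolase domain only, rose from 7.01 and 7.12 to 129.31 and 130.02 FPKM (4.02 ± 0.10), with close agreement within each group. The MAPKK unigene c62016_g1, a kinase that activates MAP kinases, went from 18.08 and 17.47 to 78.92 and 85.62 FPKM, and 2 unigenes with maize hits to CIPK11, a CBL-interacting protein kinase that acts with calcium sensors, from 7.73 and 12.06 to 71.72 and 76.83 (c51372_g1) and from 2.66 and 3.00 to 20.79 and 21.08 (c49176_g1). A MAP kinase unigene (c14147_g1) was listed at 0.00 and 0.06 FPKM in the controls and 0.86 and 4.90 in the cold and did not pass (adjusted p = 0.0643, and 0.00293 without cold replicate 1).

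Transcription factors of several families rose and 1 fell. The WRKY unigenes c56800_g1 (13.39 and 10.16 against 97.17 and 90.06 FPKM) and c56800_g2 (15.67 and 9.06 against 97.53 and 111.53) come from 1 component. The ULT unigene c53036_g1 went from 6.98 and 7.72 to 27.04 and 30.54 FPKM and the HLH unigene c64573_g2, named BIM2, from 6.49 and 5.55 to 31.19 and 30.49. The NAC unigene c57823_g1 fell from 74.87 and 62.93 to 15.47 and 16.02 FPKM (-2.06 ± 0.16, adjusted p = 0.00119). A MYB unigene (c54045_g1, 0.13 and 0.36 against 6.67 and 2.16 FPKM) and a bHLH unigene (c48928_g1, 1.81 and 1.04 against 10.86 and 7.25) passed the wider limits with both replicates but lost their calls without 3 and 4 of the libraries in turn (adjusted p up to 0.12 and 0.0946). The TUB unigene c61146_g4 and the DBP unigene c51832_g3 were below the FPKM filter, at 0.22 and 0.04 against 2.08 and 1.34 FPKM and 0.36 and 0.17 against 2.23 and 1.22.

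Primers for 12 of these unigenes were designed in the study for quantitative PCR, and those of 4 with large differences are given because they fix which transcript each name stands for. All are in lower case, written 5′ to 3′.
c61291_g1 forward: tccgtatccatccttgtccct
c61291_g1 reverse: agtatttgctggggtggcag
c57152_g1 forward: tatttcttaccaatgtcgtccccac
c57152_g1 reverse: tcacgtgcgccatctctc
c57309_g1 forward: agaacaagaattgcccacgc
c57309_g1 reverse: acctgccaaggatttagacgg
c56552_g1 forward: tcgtctggggtttcgtttga
c56552_g1 reverse: acgtggcataacatgtctcctt

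The first pair belongs to a calcium-binding protein (c61291_g1, CML16), a sensor of calcium signals, which rose from 0.61 and 0.00 FPKM to 23.47 and 15.10 (3.97 ± 0.31, adjusted p = 0.00116). The second belongs to a bHLH factor with a hit to the iron-deficiency regulator FER (c57152_g1), which rose from 3.07 and 4.96 to 93.70 and 44.36 FPKM, with cold replicate 1 at over 2 times cold replicate 2. The third belongs to an E3 ubiquitin ligase of the EL5 type (c57309_g1), which marks proteins for degradation and fell from 10.53 and 10.98 to 0.68 and 0.99 FPKM (-2.68 ± 0.21, adjusted p = 0.00117), and the last to the class II small heat shock protein c56552_g1 described above. A unigene for heat shock protein 82 (c54089_g2) fell from 5.66 and 13.01 to 0.24 and 0.50 FPKM, a call lost without cold replicate 1 (adjusted p = 0.0511). A photosystem I subunit N unigene (c58118_g1) read 7.72 and 4.49 FPKM in the controls and 0.16 and 0.14 in the cold, a difference of -2.59 that missed the limit in the fit of 6 libraries (adjusted p = 0.0502) and passed it in a fit of the 4 libraries alone (0.00977). Unigenes for a protein phosphatase 2C (c58084_g2) and ATHB-6 (c60754_g2) lay below the filter, at 0.55 FPKM or less and at 1.21 or less in these 4 libraries.

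Some unigenes were detected in only 1 of the groups. With an FPKM of at least 1 in both libraries of a group and under 0.1 in both of the other, 2248 unigenes were gained in the cold and 887 were lost, with no test. Most were scarce, with a median of 1.59 FPKM in the cold for the gained and 1.64 in the controls for the lost, and 28 and 7 reached 10 FPKM. The most abundant gained unigene (c53311_g3) was listed at 0.00 in each control and at 37.41 and 41.99 FPKM in the cold, and the most abundant lost one (c32747_g1) at 38.10 and 31.83 in the controls and 0.00 in each cold library. Gained unigenes with a product included c44283_g1, for the SSRP1 subunit of the histone chaperone FACT (0.08 and 0.08 against 12.13 and 21.93 FPKM), and c31366_g1, with a hit to ARR1, a cytokinin response factor (0.00 against 13.59 and 19.40). At a minimum of 2 FPKM in place of 1, 299 were gained and 127 lost.

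Unigenes just inside and just outside the DEG fold limit had nearly equal values. A unigene annotated AER (c58709_g1) had a difference of 2.00 with 55.59 and 61.35 against 237.93 and 235.48 FPKM and was a DEG, while arogenate dehydratase 4 (c61394_g5), an enzyme of phenylalanine synthesis, had 1.996 with 20.35 and 14.64 against 72.87 and 70.91 and was not. An exocyst subunit (c54355_g2, 6.61 and 6.79 against 31.18 and 28.34 FPKM) lay just outside too, at 1.997.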

How the data were processed

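RNA from pooled seedlings was sequenced on HiSeq2500 after poly(A) selection. The authors assembled the reads de novo with Trinity, aligned them with Bowtie (version 1.1.1) and estimated abundance with RSEM, and they deposited FPKM per unigene and library, with no read counts. Genomic positions were not used here. Names came from the study's annotation tables, and 1707 of 1999 maize accessions matched a RefSeq symbol (Zm-B73-REFERENCE-NAM-5.0). Unigenes that the study singled out carry the names it gives them. For c47232_g1, c49254_g1, c56760_g2, c57228_g1, c57309_g1 and c58118_g1 the annotation held gave no product, so these names rest on the study alone. Tables of the authors' own fold changes and p-values were used for names only.

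The deposited FPKM values were taken as log2(FPKM + 1), so differences of scarce unigenes are understated. Differences were tested two-sided with limma 3.58.1 in R 4.3.3 (empirical Bayes with a mean-variance trend), with all 6 libraries in one fit and Benjamini-Hochberg adjustment over the 39711 unigenes averaging 1 FPKM or more in the 4 libraries. Every adjusted p in the report is from this fit unless another setting is named. Scripts were tested on simulated data. The labels name the libraries of a group as replicates of pooled seedlings, and p-values measure only the spread between these libraries. Unigenes of one assembly component, and paralogs, may share reads.

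Named unigenes were, in each direction, the 12 DEGs of greatest difference with a product, no overlap between groups and a mean of 10 FPKM or more in the higher group, the 5 greatest gains and 5 greatest losses in FPKM among changed unigenes, up to 2 changed members in each direction and the most abundant member of each list, unigenes the study singled out, and those nearest the fold limit. Members singled out beyond this rule were chosen after their values were seen. The members and lists were chosen with earlier results of these data known. Alternatives were other filters, pseudocounts, scalings and thresholds, a separate fit, a replicate block, and leaving out each library.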

Additional observations from a re-analysis of the deposited data

How the results depend on the processing

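The DEG counts depended on the fit more than the changed counts did. With no filter 0 DEGs were called in either direction by limma (36729 unigenes at an unadjusted p under 0.05), and the separate fit of 4 libraries called 406 higher and 189 lower. Requiring a log2 difference of 1 or more in place of 2 gave 1626 and 1502. Leaving out 1 library gave 0 to 437 higher and 0 to 36 lower DEGs, and 2754 to 3946 higher and 2609 to 2780 lower changed unigenes. A mean FPKM of at least 5 left 2210 higher and 2330 lower changed unigenes, and with no fold threshold 6355 were higher and 8725 lower, so that the majority turned from higher to lower. Members of the annotation lists that were lower numbered 26 after median-of-ratios scaling, and 299 unigenes were gained and 127 lost at an FPKM of at least 2. The cause of these differences was not tested, beyond fewer samples, other thresholds or another number of unigenes tested. The replicate block gave 488 higher and 272 lower DEGs. Same-numbered libraries did not deviate together (correlations -0.02 for control and cold, -0.01 for control and drought, 0.04 for cold and drought), so the numbers do not pair them. No unigene called both in the fit of 6 libraries and under another setting changed sign, which a difference of 1 or more in both made unlikely. Unigenes near 0 did: under median-of-ratios scaling c57059_g2 was at 0.0945, c60955_g1 at 0.0636 and c52663_g5 at 0.0702, and over the fits without 1 library c57059_g2 ran from -0.274 to 0.0041, c62416_g2 from -0.0364 to 0.162, c1050_g1 from -1.35 to 0.70 and c13919_g1 from -0.49 to 0.53. With 2 libraries a group and no read counts, the counting error of a single FPKM value is unknown.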
